A study of Saccharomyces cerevisiae with 56 samples.

Results

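The *rtt105*Δ *rad27*Δ double mutant was described by the DNA segments captured at a single induced break in its genome. The members are the 317 donor segments in its 2 pooled lists, one of insertions with a single donor and one of complex insertions with several, among 1620 donor segments in the lists used for the whole series. They were set against the 367 donor segments of *rad27*Δ and the 624 of *rtt105*Δ in lists of the same kinds. *Break-Ins* amplifies the junction left at *MAT***a** in cells that survive continuous cutting by the HO endonuclease, which is expressed from a galactose-inducible promoter, and a captured segment of more than 10 bp is traced to the place in the genome it came from.

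All 3 strains were haploid JKM139 derivatives that carried *ade3::GAL10::HO* together with *trp1::hisG*, *ura3-52*, *lys5*, *leu2* (alleles 3 and 112) and *ade1*. They were *MAT***a** DELho with the silent cassettes replaced (*hmr::ADE1*, *hml::ADE1*), so that the cut at *MAT***a** had no homologous cassette for repair. *RTT105* was replaced by hphMX and *RAD27* by klTRP1 in the respective single mutants, and both replacements were combined in the double mutant. The double mutant was grown at 30 °C in 3 libraries of 19968, 60960 and 30912 colonies, *rtt105*Δ at 30 °C in 8 libraries, and *rad27*Δ in 14 libraries, of which 8 were kept at 30 °C, 3 at 23 °C and 3 at 37 °C. The lists pool the libraries of a genotype and give no read count, so the spread between libraries is not known, and every interval and p below covers counting error only. The insertions of the double mutant were read in a sequencing run that held none of the listed insertions of either single mutant, so run and genotype cannot be told apart. Wild-type lists were not analysed here. No donor lay inside *RAD27* (chromosome XI, 224727 to 225875) or *RTT105* (chromosome V, 366802 to 367428) in any of the 3 lists, which is no check of the deletions, since each single mutant still carries one of these genes.

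Rad27, the yeast FEN1 nuclease, cuts the 5′ flaps that DNA polymerase displaces when Okazaki fragments on the lagging strand are joined. Rtt105 is a chaperone of RPA, the complex that coats single-stranded DNA during replication and repair, and helps RPA to reach the nucleus and to bind DNA. Segments of chromosomes, of Ty retrotransposon cDNA, of rDNA or of mitochondrial DNA can be joined into a break when its ends are sealed by end joining.

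Of the 317 donors of the double mutant, 284 were nuclear, 16 came from rDNA, 9 from Ty elements, 1 from mitochondrial DNA and 7 from the mating-type cassettes, a class called *MAT* here. Nuclear donors thus made up 91.6% (exact binomial interval 88.0 to 94.4) of the 310 donors outside *MAT*. In *rad27*Δ the share was 88.1%, or 311 of 353, and in *rtt105*Δ it was 46.8%, or 281 of 600. The double mutant had the composition of *rad27*Δ within counting error and differed from *rtt105*Δ. With adjustment over 16 comparisons of shares, Fisher's two-sided exact test gave p = 0.230 against *rad27*Δ and p = 8.15e-44 against *rtt105*Δ. Ty elements supplied 2.90% of the donors of the double mutant, 5.38% of those of *rad27*Δ and 34.3% of those of *rtt105*Δ, with adjusted p = 0.222 and 3.08e-31 by the same test. Mitochondrial DNA supplied 1 donor in the double mutant, 3 in *rad27*Δ and 42 in *rtt105*Δ (adjusted p = 0.772 and 2.40e-06, Fisher's exact test). With the smaller *rtt105*Δ run alone, of 52 donors, the difference from *rtt105*Δ turned from −6.68 to 0.323 percentage points.

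The frequency of all insertions outside *MAT* was 28.9 per 10000 DSB repair products in the double mutant (299 insertions, exact Poisson interval 25.7 to 32.4). It was 7.36 in *rad27*Δ (328 insertions, 6.58 to 8.20) and 22.2 in *rtt105*Δ (560 insertions, 20.4 to 24.2). The double mutant exceeded *rad27*Δ 3.93-fold (interval 3.35 to 4.61) and *rtt105*Δ 1.30-fold (1.13 to 1.50), with adjusted p = 3.27e-59 and 0.000516 by Fisher's exact test over 12 comparisons of frequencies. Set against the sum of both single mutants, 29.6 per 10000, the double mutant differed by −0.67 (interval −4.49 to 3.32). This comparison depended on the denominator. Over colonies, without the *rad27*Δ libraries at 37 °C, the double mutant had 26.7 and the sum 20.4 per 10000, a difference of 6.31 (3.04 to 9.79).

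The classes did not follow the total. Nuclear donors of the double mutant numbered 27.5 per 10000 repair products, against 18.1 for the sum of 6.98 in *rad27*Δ and 11.2 in *rtt105*Δ, an excess of 9.34 (interval 5.84 to 13.04). Ty donors went the other way. They numbered 0.871 per 10000 in the double mutant, 0.426 in *rad27*Δ and 8.18 in *rtt105*Δ, so that the double mutant lay below the sum of 8.61 (difference −7.74, interval −9.05 to −6.39). The Ty frequency of the double mutant was 0.106 of that in *rtt105*Δ (interval 0.0480 to 0.206, adjusted p = 3.45e-20, Fisher's exact test), and its ratio to *rad27*Δ was 2.04 (0.814 to 4.74, adjusted p = 0.128). Mitochondrial donors lay below the sum as well, at 0.0968 against 1.74 per 10000 (difference −1.64, interval −2.25 to −0.99). rDNA donors were at 1.55 per 10000 against a sum of 2.86 (difference −1.31, interval −2.30 to −0.18), and over colonies this last interval included 0. Each of the other differences in this paragraph kept its direction over colonies, with an interval that excluded 0.

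**Figure D1:**
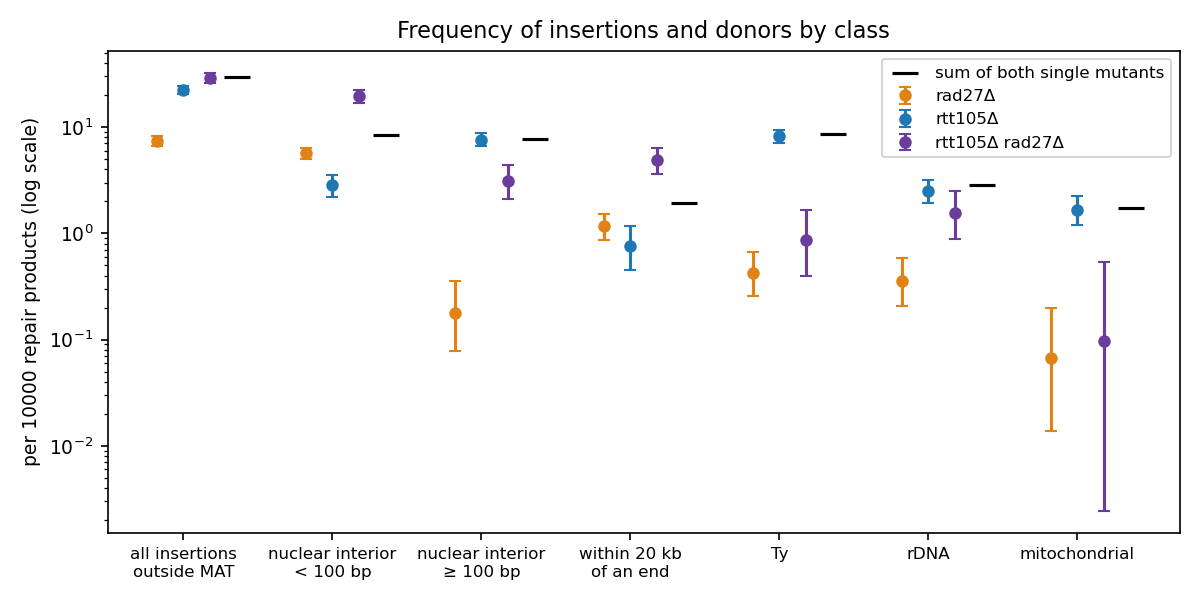
Frequency per 10000 DSB repair products (log scale) of all insertions outside *MAT* and of donors by class, with exact 95% Poisson intervals, in *rad27*Δ (orange), *rtt105*Δ (blue) and the double mutant (purple); the black bar is the sum of both single mutants. The double mutant lies at the sum for all insertions (28.9 against 29.6), above it for short nuclear donors and donors near chromosome ends, and below it for long interior, Ty, rDNA and mitochondrial donors.

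The excess of nuclear donors was one of short segments. A split at 100 bp, made after the data had been seen, placed 220 of the 284 nuclear donors of the double mutant below that length, or 21.3 per 10000 repair products against a sum of 9.42 (difference 11.9, interval 8.93 to 15.02). Nuclear donors of 100 bp or more were at 6.19 per 10000 against a sum of 8.72 (difference −2.53, interval −4.40 to −0.49), but over colonies at 5.72 against 5.91 (difference −0.19, interval −1.74 to 1.56). Location separated the long donors further. More than 20 kb from a chromosome end, long donors of the double mutant numbered 3.10 per 10000 against a sum of 7.76 (difference −4.67, interval −6.19 to −3.02). Within 20 kb of an end, long donors were also at 3.10 per 10000, against a sum of 0.953 (difference 2.14, interval 1.07 to 3.45). Both of these differences kept their sign over colonies, with intervals that excluded 0. Donors below 100 bp within 20 kb of an end were at 1.74 per 10000 against a sum of 0.968. That difference was 0.773 (interval −0.051 to 1.82), and over colonies its interval excluded 0.

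Lengths were compared over single-donor insertions. The median length of nuclear insertions was 70 bp in the double mutant (262 insertions, interval 66 to 74), 63 bp in *rad27*Δ (264 insertions, 60 to 66) and 144 bp in *rtt105*Δ (240 insertions, 132 to 158). Segments of 100 bp or more made up 23.7% in the double mutant, 11.4% in *rad27*Δ and 74.6% in *rtt105*Δ. The double mutant differed from both, with adjusted p = 0.000401 against *rad27*Δ and 3.16e-30 against *rtt105*Δ (Fisher's exact test, adjusted over 18 comparisons of lengths). The difference from *rad27*Δ passed the test with the largest of its 3 sequencing runs alone, of 279 donors. With the second alone, of 62 donors, it was 2.04 percentage points and did not pass, and with the third alone, of 26 donors, it was −9.67 points.

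Inside genes, the median of the double mutant was 68 bp (169 insertions), between 61.5 bp in *rad27*Δ and 159 bp in *rtt105*Δ. Insertions of 100 bp or more from genes numbered 30 of 169 in the double mutant, 8 of 180 in *rad27*Δ and 75.8% of 165 in *rtt105*Δ (adjusted p = 0.000152 and 9.45e-27, Fisher's exact test). Insertions from between genes had medians of 75, 66 and 117 bp in the double mutant, *rad27*Δ and *rtt105*Δ, and 34.4%, 26.2% and 72.0% were long (adjusted p = 0.329 against *rad27*Δ and 3.97e-06 against *rtt105*Δ, Fisher's exact test). Donors between genes include most of those at chromosome ends. More than 20 kb from an end, intergenic insertions had medians of 65 bp in the double mutant, 62 bp in *rad27*Δ and 123.5 bp in *rtt105*Δ.

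Near chromosome ends no difference in length passed the test. The 50 single-donor insertions of the double mutant within 20 kb of an end had a median of 132 bp (interval 96 to 192), the 40 of *rad27*Δ one of 114 bp (75 to 174), and the 17 of *rtt105*Δ one of 105 bp (81 to 154). The shares of 100 bp or more were 64%, 55% and 52.9%, with adjusted p = 0.477 against *rad27*Δ and 0.636 against *rtt105*Δ by Fisher's exact test. With donors of complex insertions added, the medians were 132, 82.5 and 106 bp in the double mutant, *rad27*Δ and *rtt105*Δ, so the order of the single mutants turned. The other nuclear insertions of the double mutant had a median of 66 bp, with 30 of 212 at 100 bp or more. In *rad27*Δ 8 of 224 and in *rtt105*Δ 170 of 223 were that long (adjusted p = 0.000279 and 5.32e-40 against the double mutant, Fisher's exact test). The 9 Ty insertions of the double mutant were all short, from 43 to 94 bp with a median of 57 bp. Of the 19 Ty insertions of *rad27*Δ, 12 reached 100 bp, and of the 178 of *rtt105*Δ, 154 did (adjusted p = 0.00464 and 2.19e-07 against the double mutant, Fisher's exact test). rDNA insertions had medians of 71.5 bp in the double mutant (n = 16), 49 bp in *rad27*Δ (n = 13) and 137 bp in *rtt105*Δ (n = 59), with 5, 1 and 49 of them at 100 bp or more.

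**Figure D2:**
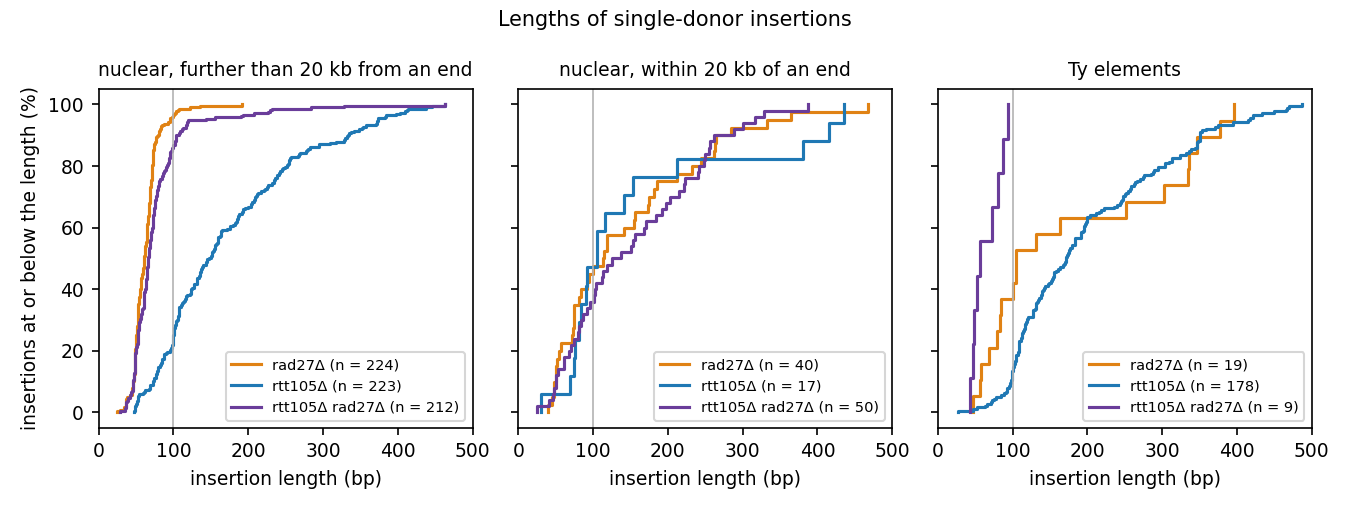
Cumulative share of single-donor insertions (%) by insertion length (bp) for nuclear donors further than 20 kb from a chromosome end, nuclear donors within 20 kb of an end, and Ty donors, in *rad27*Δ (orange), *rtt105*Δ (blue) and the double mutant (purple); the grey line marks 100 bp. In the interior the medians were 66 bp in the double mutant, 61 bp in *rad27*Δ and 147 bp in *rtt105*Δ. There 14.2%, 3.57% and 76.2% of insertions reached 100 bp. Near the ends the 3 curves cross, and all 9 Ty insertions of the double mutant end at 94 bp.

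Subtelomeres hold repeated gene families, among them the Y′ helicase genes YRF1, the seripauperin genes PAU and the COS genes, and their donors can be assigned to one of several near-identical copies. Within 20 kb of an end lay 50 of 284 nuclear donors of the double mutant (17.6%, interval 13.4 to 22.5), 52 of 311 in *rad27*Δ (16.7%) and 19 of 281 in *rtt105*Δ (6.76%). The share of the double mutant did not differ from *rad27*Δ by Fisher's exact test (adjusted p = 0.828) and exceeded *rtt105*Δ (adjusted p = 0.000378). The 50 donors were found in every part of the window, but 36 of them lay at 11 loci with 2 or more donors of the double mutant. The test counted donors of 1 locus as separate. There were 7 within 1 kb of an end, 13 between 1 and 5 kb, 21 between 5 and 10 kb and 9 between 10 and 20 kb. In the same order the counts were 11, 8, 15 and 18 in *rad27*Δ and 1, 2, 8 and 8 in *rtt105*Δ. Genes held 172 nuclear donors of the double mutant (60.6%), 206 of *rad27*Δ (66.2%) and 197 of *rtt105*Δ (70.1%), with adjusted p = 0.230 and 0.0490 by Fisher's exact test. Within 200 bp of a tRNA gene lay 5, 7 and 12 donors.

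**Figure D3:**
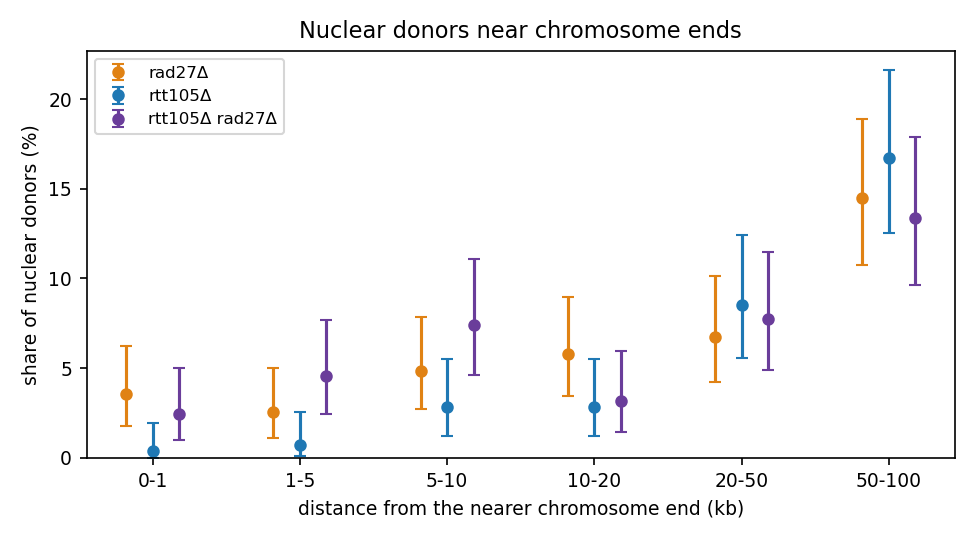
Share of nuclear donors (%) by distance from the nearer chromosome end (kb) with exact 95% binomial intervals in *rad27*Δ (orange, 311 donors), *rtt105*Δ (blue, 281 donors) and the double mutant (purple, 284 donors). Below 10 kb the points of the double mutant and *rad27*Δ lie above those of *rtt105*Δ, but the intervals of the 3 genotypes overlap in each bin shown.

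The orientation of donors gave no contrast. In the double mutant 144 of 284 nuclear donors were read on the plus strand, and 104 of the 172 donors in genes (60.5%, interval 52.7 to 67.8) had the orientation of the coding strand. *rad27*Δ had 60.2% (interval 53.2 to 66.9) and *rtt105*Δ 62.4% (55.3 to 69.2) on the coding strand, which was thus the more frequent in each list. The middle of the donor was closer to the 5′ than to the 3′ end of the gene in 43.0% of cases in the double mutant, 49.5% in *rad27*Δ and 44.2% in *rtt105*Δ, with overlapping intervals. These shares were not tested.

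A nuclear donor of the double mutant was counted as shared with a single mutant when one of that mutant's nuclear donors lay within 500 bp. On this count 61 of 284 donors (21.5%) were shared with *rad27*Δ and not *rtt105*Δ, 15 (5.28%) with *rtt105*Δ and not *rad27*Δ, 10 (3.52%) with both, and 198 (69.7%, interval 64 to 75) with neither. Seen from the single mutants, 58 of 311 *rad27*Δ donors (18.6%) and 20 of 281 *rtt105*Δ donors (7.12%) lay within 500 bp of a donor of the double mutant. Between the single mutants themselves, 24 of 311 *rad27*Δ donors (7.72%) lay near an *rtt105*Δ donor and 19 of 281 *rtt105*Δ donors (6.76%) near a *rad27*Δ donor. Sharing was concentrated at the ends. Within 20 kb of an end, 35 of 50 donors of the double mutant (70.0%, interval 55.4 to 82.1) lay near a *rad27*Δ donor and 8 (16.0%) near one of *rtt105*Δ. In the interior the counts were 36 of 234 (15.4%) and 17 of 234 (7.26%). Donors near the ends can be assigned to one of several near-identical copies, so a shared position there may be that of the alignment. The part of this assignment in the sharing was not tested. If actual overlap was required, 59 of 284 donors (20.8%) overlapped a *rad27*Δ donor and 14 (4.93%) an *rtt105*Δ donor. Longer *rtt105*Δ donors cover more of the genome, and these shares are descriptions with no test.

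**Figure D4:**
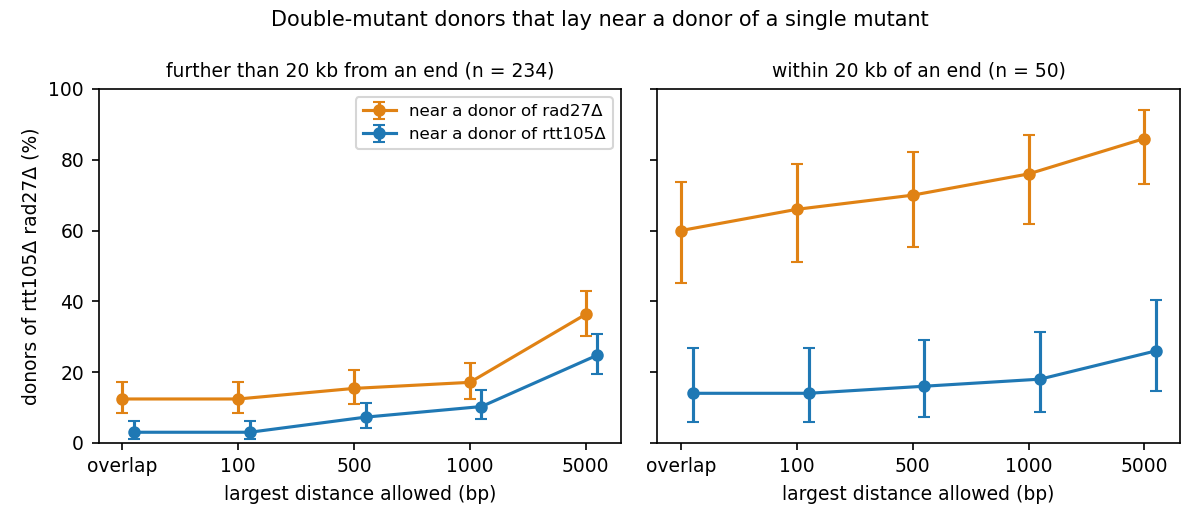
Share of nuclear donors of the double mutant (%) that overlapped a donor of *rad27*Δ (orange) or *rtt105*Δ (blue) or lay within the distance on the x axis (bp), with exact 95% binomial intervals, for 234 interior donors and 50 donors within 20 kb of a chromosome end. At each distance shown more donors lay near *rad27*Δ than near *rtt105*Δ, with 70.0% against 16.0% near the ends at 500 bp.

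Donors were merged into loci when they lay within 500 bp of each other, which gave 689 loci over the 3 genotypes and 230 with a donor of the double mutant. Of these 230, 184 had no donor of a single mutant, 27 were also in *rad27*Δ, 14 also in *rtt105*Δ and 5 in all 3. Few loci of the single mutants recurred either. A donor of the double mutant was present at 32 of 267 loci of *rad27*Δ and at 19 of 256 of *rtt105*Δ. A single donor of the double mutant marked 202 of the 230. The double mutant had donors at 14 of the 31 loci at which *rad27*Δ had 2 or more donors, and at 1 of 23 such loci of *rtt105*Δ. The 15 loci with 3 or more donors of the double mutant held 56 of its donors, 34 of *rad27*Δ and 3 of *rtt105*Δ. A *rad27*Δ donor was present at 13 of the 15 and an *rtt105*Δ donor at 3. The loci were picked by the count of the double mutant, so these numbers are a description.

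Of the 15, 7 lay within 20 kb of an end. The most frequent was the stretch between YRF1-6 and COS1 on the left arm of chromosome XIV (6400 to 6688 on the R64 genome), with 6 donors of the double mutant of 61, 192, 215, 242, 262 and 289 bp, 2 of *rad27*Δ of 48 and 186 bp, and none of *rtt105*Δ. All but one of the 6 were on the plus strand, and the 5 longest covered the middle of the locus, with left ends that differed in each case and a right end at 6681 in 2 of them. Between IMD2, an IMP dehydrogenase gene of GTP synthesis, and YHR218W on chromosome VIII (556837 to 557172), the double mutant had 4 donors of 74, 138, 198 and 250 bp, *rad27*Δ had 6 of 28 to 263 bp and *rtt105*Δ 1 of 116 bp. All 11 were on the minus strand. Between PAU4 and YLR462W on chromosome XII (1064990 to 1065361) there were 4 donors of 86, 184, 223 and 240 bp in the double mutant and 6 of 52 to 265 bp in *rad27*Δ, again all on the minus strand. The locus of YFL064C on chromosome VI (3827 to 4822) had 4 donors of the double mutant, of 113, 168, 222 and 328 bp, and 3 of *rad27*Δ, all on the plus strand. Between PAU10 and YRF1-1 on chromosome IV (1525371 to 1525685) the 3 donors of the double mutant had 156, 248 and 257 bp and the 2 of *rad27*Δ 141 and 212 bp. At YLL066W-B on chromosome XII (5460 to 5800) the 3 donors of the double mutant, of 96, 153 and 255 bp, were on the plus strand and the 2 of *rad27*Δ, of 113 and 115 bp, on the minus strand. The first bases of chromosome III (64 to 387, beyond the glutathione exchanger gene GEX1) gave 4 short donors of 25, 46, 68 and 92 bp in the double mutant and 2 of 40 and 119 bp in *rad27*Δ. Long donors thus recurred at 6 of these 7 loci and short ones at the seventh.

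The other 8 of the 15 loci lay in the interior, and donors there were short with few exceptions. In the interval between CDC14, the phosphatase gene of mitotic exit, and PTR3, an amino acid sensor gene, on chromosome VI (210328 to 210454), the double mutant had 5 donors of 50, 50, 66, 68 and 75 bp and *rad27*Δ 1 of 62 bp. All 6 were on the minus strand. At the 3′ end of SHE10 on chromosome VII (69268 to 69385) the 4 donors of the double mutant had 60, 75, 94 and 118 bp and the 1 of *rad27*Δ 80 bp. Their right ends fell between 69379 and 69385, while their left ends ranged from 69268 to 69324. YJR115W, an open reading frame on chromosome X (639921 to 640051), was one of 2 interior loci found in all 3 genotypes. It had 3 donors of the double mutant of 62, 89 and 103 bp, 2 of *rad27*Δ of 52 and 61 bp, and 1 of *rtt105*Δ of 107 bp that began at the same base as the longest of the double mutant. The locus of DPH5, a methyltransferase gene of diphthamide synthesis on chromosome XII (501052 to 501952), was the other. The double mutant had 1 donor of 67 bp there, between APS1 and DPH5. Inside the gene lay 1 donor of 55 bp in *rad27*Δ and 1 of 410 bp in *rtt105*Δ, and the 3 did not overlap.

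On chromosome II, the stretch between MUM2 and the 3′ end of UBP14, a gene for an enzyme that takes free ubiquitin chains apart (353592 to 353686), had 4 donors of the double mutant of 26, 48, 54 and 80 bp and 5 of *rad27*Δ of 56 to 95 bp. All 4 of the double mutant belonged to complex insertions and were on the minus strand. In *rad27*Δ the 2 from complex insertions were also on the minus strand, and the 3 single-donor insertions were on the plus strand. Between VHR2 and ICL1, the isocitrate lyase gene of the glyoxylate cycle, on chromosome V (284384 to 284471) the double mutant had 3 donors of 65, 68 and 86 bp, of which 2 were in complex insertions, and neither single mutant had any. All 3 began within 2 bp of each other. At YAT1, a mitochondrial carnitine acetyltransferase gene on chromosome I (190113 to 190875), the double mutant had 3 donors of 46, 70 and 90 bp and *rtt105*Δ 1 of 91 bp. GAL11, a Mediator tail subunit gene rich in glutamine codons, on chromosome XV (237002 to 237927) had 3 of the double mutant, of 32, 48 and 61 bp, and 1 of *rad27*Δ of 49 bp. The donors of 32 and 48 bp belonged to 1 complex insertion. The interval between YCL001W-B and YCR001W on chromosome III (114129 to 114656) was the exception in length, with donors of 239, 258 and 328 bp in the double mutant and 49 bp in *rad27*Δ. Those of 239 and 258 bp also belonged to 1 complex insertion.

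**Figure D5:**
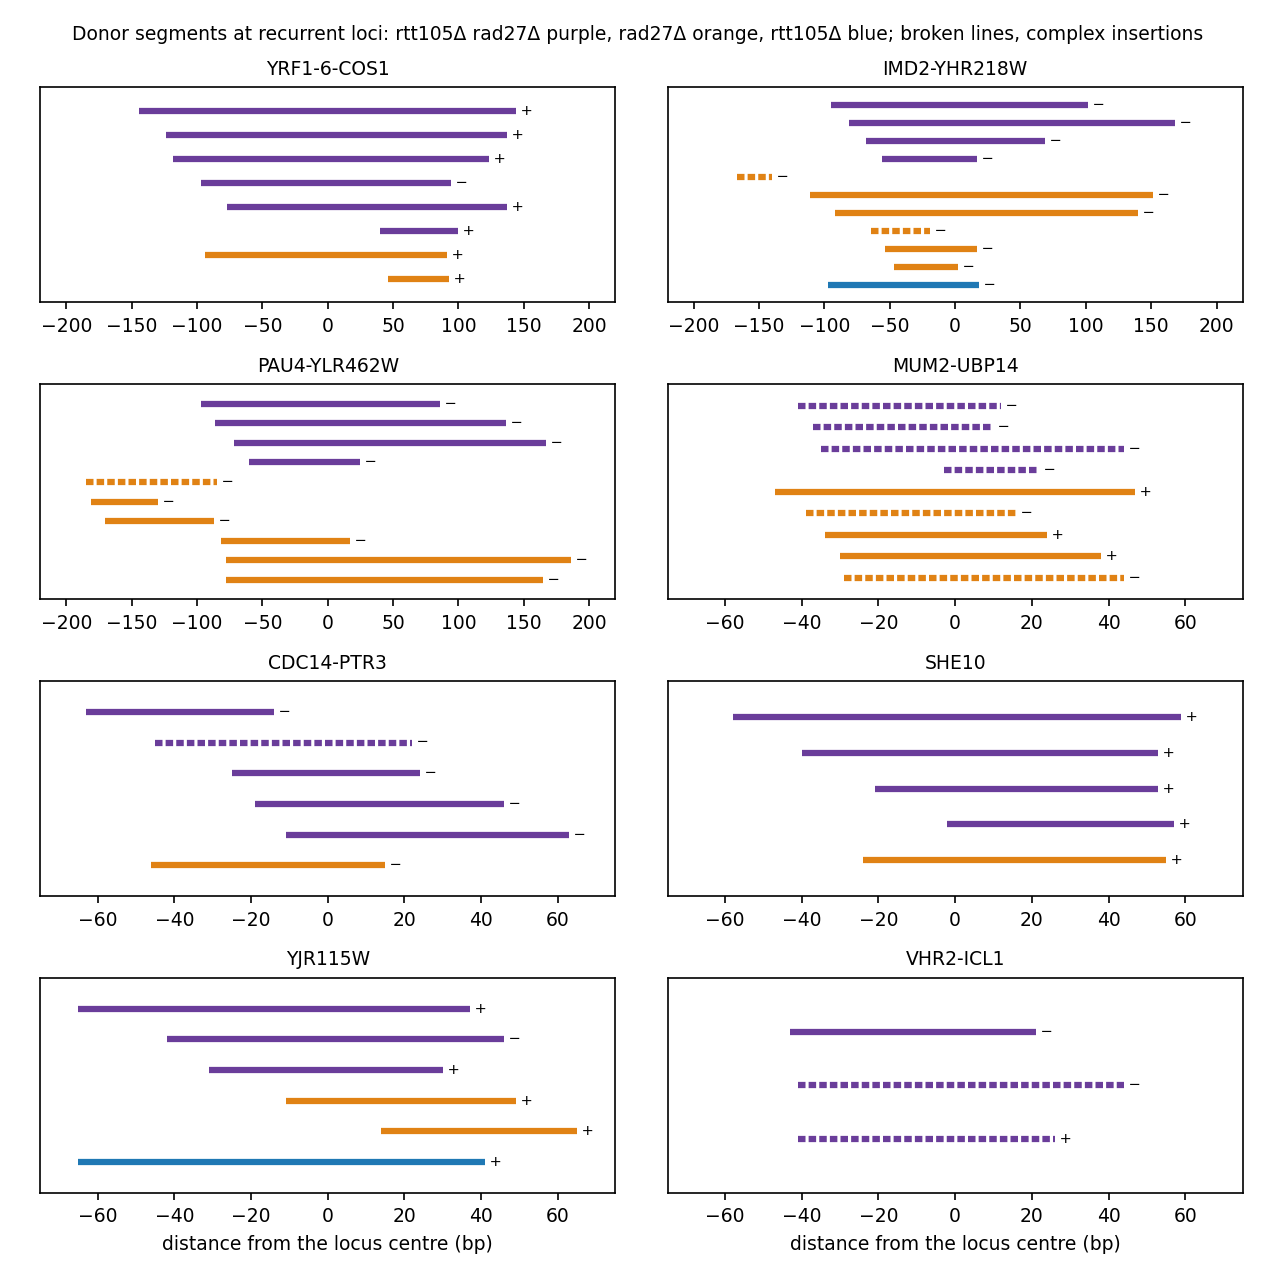
Donor segments at 8 recurrent loci, drawn by distance from the locus centre (bp), in the double mutant (purple), *rad27*Δ (orange) and *rtt105*Δ (blue), with the strand at the right end and broken lines for donors of complex insertions. Donors of a locus do not share both ends, and not all of them overlap. VHR2-ICL1 holds donors of the double mutant only.

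Further loci shared with 2 or more donors of a single mutant were few. The stretch between YLL066C and PAU18 on chromosome XII (11023 to 11329) and the one between MNN9 and DIG1, a regulator gene of mating and filamentous growth, on chromosome XVI (462391 to 462502) each had 2 donors of the double mutant and 2 of *rad27*Δ. HRK1, a kinase gene, on chromosome XV had 1 donor of the double mutant of 72 bp, which spanned both *rad27*Δ donors of 62 and 70 bp, all on the minus strand. At the histone genes HHT2 and HHF2 on chromosome XIV the 1 donor of the double mutant lay between the genes, and *rad27*Δ had 1 donor in each gene. The right end of chromosome XIV had 1 donor of the double mutant and 2 of *rad27*Δ. The only such locus shared with *rtt105*Δ alone lay between YCR006C and DFP3 on chromosome III (123374 to 124726), with 1 donor of the double mutant of 111 bp and 4 of *rtt105*Δ of 101 to 372 bp. Besides YJR115W, DPH5 and the IMD2 locus, the right end of chromosome III and the PAU1 locus on chromosome X had 1 donor of each genotype.

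Of 6055 annotated genes outside Ty, tRNA and rRNA genes, 159 (2.63%) held a donor of the double mutant, and 8 of them held 2 or more. Of the 159, 13 also had a donor of *rad27*Δ only, 7 of *rtt105*Δ only, 2 of both and 137 of neither. *rad27*Δ had donors in 188 genes (3.10%) and *rtt105*Δ in 186 (3.07%). Genes shared with *rad27*Δ included SED1, a cell wall glycoprotein gene, STE6, the exporter gene of a-factor, TRK1, a potassium transporter gene, and PHO90, a phosphate transporter gene, with 1 donor in each genotype. Genes shared with *rtt105*Δ included NUP116, a nuclear pore gene, AQR1, a drug and amino acid exporter gene, and STT3, a subunit gene of oligosaccharyltransferase. Those 2 sets were chosen after their values had been seen. Both single mutants had donors in IMD2 itself and in YJR115W.

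Loci with 2 or more donors of the double mutant and no donor of either single mutant within 500 bp numbered 9. VHR2-ICL1 had 3 and the others 2 each. They lay at ECM33, a cell wall protein gene (74 bp inside the gene and 49 bp beyond its 3′ end), in GAT2, a GATA-type factor gene (58 and 70 bp), at ROF1 (53 and 66 bp), at PBI2 (232 and 463 bp), a proteinase B inhibitor gene, in YRF1-7 (53 and 171 bp), where *rad27*Δ had 1 donor elsewhere in the gene, and between ATG22 and SRO9, RTN1 and LYS4, and RPB10 and MGM1, where both donors belonged to 1 insertion. With the exception of VHR2-ICL1 and RPB10-MGM1 these were named after their values had been seen.

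The 5 gene lists chosen for repeat-rich or highly expressed genes are given as counts with no test, to be read against the 2.63% of all genes hit in the double mutant. The lists do not cover their classes in full, and ECM33, for example, is on none of them. Of 39 genes rich in glutamine or asparagine codons, 4 held 6 donors of the double mutant, with 3 in GAL11 and 1 each in CYC8, a corepressor gene, HRP1, an mRNA cleavage factor gene, and WHI3, an RNA-binding regulator gene of the cell cycle. Of the 3 donors in GAL11, 2 belonged to 1 insertion. In the same 39 genes *rad27*Δ had 8 donors in 7 and *rtt105*Δ 3 in 3. Of 32 cell wall and mucin-like genes, the double mutant hit MSB2 and SED1 once each, *rad27*Δ had 3 donors and *rtt105*Δ 7, of which 3 were in FLO1. Of 25 galactose and hexose genes only HXT14 was hit, once, in the double mutant, and none in either single mutant. The list of 33 glycolytic and translation genes also holds chaperone genes. Of these 33 the double mutant hit PDC5, a pyruvate decarboxylase gene, and HSC82, an Hsp90 chaperone gene, once each. In the same list *rad27*Δ had 3 donors in 3 genes and *rtt105*Δ 1. Of 42 listed genes of subtelomeric families the double mutant hit YRF1-7, with 2 donors. In that list *rad27*Δ had 1 donor each in PAU1, PAU23 and YRF1-7 and *rtt105*Δ 1 in COS10. Genes near an end that are not on the list also held donors of the double mutant, among them YHL050C and YLL067C with 1 each and YLL066W-B with 3.

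The 16 rDNA donors of the double mutant were split evenly, with 8 inside the 35S precursor unit and 8 in the 5S gene or the spacers around it. In *rad27*Δ 11 of 16 and in *rtt105*Δ 43 of 63 were inside the unit. The 9 Ty donors came from 4 elements, with 5 of them from 1 element on chromosome XVI. Elements of 1 Ty family are near-identical, so the element named is one of several possible sources. Of the 7 *MAT* donors, 4 began at the same base (294436 of chromosome III) on the minus strand with lengths of 43, 46, 46 and 67 bp, and 3 of 66 to 103 bp were placed beside HML on the other arm. The cassettes share sequence in the reference, so these places are those of the deposited alignment.

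Complex insertions numbered 1.06 per 10000 repair products in the double mutant (exact Poisson interval 0.531 to 1.90), 0.561 in *rad27*Δ (0.363 to 0.828) and 1.59 in *rtt105*Δ (1.13 to 2.16), while single-donor insertions numbered 27.9 in the double mutant and 6.80 in *rad27*Δ. As a share of all insertions they were lower in the double mutant. They made up 11 of 299 insertions (3.68%, interval 1.85 to 6.49), 25 of 328 in *rad27*Δ (7.62%) and 40 of 560 in *rtt105*Δ (7.14%). Fisher's exact test adjusted over 4 comparisons gave p = 0.0481 against each single mutant, close to the threshold of 0.05. All 11 held 2 nuclear donors. A same-locus inverted pair, that is 2 donors of 1 insertion on opposite strands within 1 kb, was present in 2 of the 11 (18.2%, interval 2.28 to 51.8), in 15 of 23 nuclear complex insertions of *rad27*Δ (65.2%) and in 14 of 17 of *rtt105*Δ (82.4%). The adjusted p was 0.0481 against *rad27*Δ and 0.00593 against *rtt105*Δ by Fisher's exact test. The test counted each insertion as separate. Of the 11, however, 4 held a donor from MUM2-UBP14, none of them with an inverted pair, and 2 of these joined the same 2 loci as a *rad27*Δ insertion.

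The inverted pairs of the double mutant were short and overlapped. In GAL11 a plus-strand donor of 48 bp (237398 to 237445) was joined to a minus-strand donor of 32 bp (237420 to 237451). Between RPB10, a subunit gene shared by RNA polymerases, and MGM1, a mitochondrial fusion gene, on chromosome XV, a plus-strand donor of 33 bp (738795 to 738827) was joined to a minus-strand donor of 36 bp (738804 to 738839). One further insertion joined 2 plus-strand donors of 258 and 239 bp from the same locus on chromosome III. The remaining 8 insertions joined distant loci, and 4 of the 11 contained the MUM2-UBP14 donor and 2 the VHR2-ICL1 donor.

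Donors with identical ends and strand in the double mutant and a single mutant were rare. Outside *MAT* there were 2 with *rad27*Δ and none with *rtt105*Δ, and both were the second donor of a complex insertion whose first donor came from MUM2-UBP14. A 30-bp donor between ATG31 and SES1 on chromosome IV (489443 to 489472, plus strand) was joined to 353598 to 353651 of chromosome II in the double mutant and to 353600 to 353655 in *rad27*Δ. A 31-bp donor between RPL39 and SWE1 on chromosome X (76564 to 76594, plus strand) was joined to 353604 to 353683 in the double mutant and to 353610 to 353683 in *rad27*Δ. The pairs were read in different sequencing runs, and the donor ends on chromosome II differed by 2 to 6 bp in 3 of 4 cases. Whether an unlisted copy of a junction was carried between libraries was not tested.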

How the data were processed

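Insertions at the HO break were read from pooled lists of 3 libraries of *rtt105*Δ *rad27*Δ, 14 of *rad27*Δ and 8 of *rtt105*Δ. The authors cleaned reads with BBDuk, merged the mates with PEAR and searched them with BLASTN. Insertions over 10 bp were retained, duplicates among the reads were collapsed, and donors were placed on the R64 genome. Per the file headers, the other unit in the deposited lists is a donor start and end in base pairs, with a strand and no read count. Starts were taken as 0-based and printed with 1 added, since the files do not state this.

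Frequencies used the number of DSB repair products after normalization by HO cutting in the study's supplementary list of strains, 103358 for *rtt105*Δ *rad27*Δ, 445695 for *rad27*Δ and 251798 for *rtt105*Δ. Colonies were the alternative, with 111840, 600672 without the 37C libraries (820032 with them) and 374304 from the labels. Whether the pooled *rad27*Δ list holds insertions of the 37C libraries is not known. An insertion was counted outside *MAT* if any of its donors was.

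Classes were set from the R64 annotation of RefSeq. A donor was assigned to *MAT* within 700 bp of a mating-type cassette, to Ty within 400 bp of a Ty open reading frame and to rDNA within 500 bp of the annotated rDNA. The sequence mp, with 4 donors in *rad27*Δ and 8 in *rtt105*Δ, is not explained in the sources used here and was kept apart. The right end of a chromosome was the largest annotated or donor position. Gene symbols came from the same annotation.

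Counts were compared with Fisher's exact test and Benjamini-Hochberg adjustment at 0.05. Intervals are at 95%, exact Poisson for frequencies, Clopper-Pearson for shares and order-statistic for medians. The difference between the double mutant and the sum of the single mutants combined exact Poisson limits by recovery of variance estimates. The procedures were tested on simulated data. Named loci had 3 or more donors of the double mutant, were found in all 3 genotypes or with 2 or more donors of a single mutant (at most 15 each), held an inverted pair of the double mutant, lay in 5 gene lists (at most 25) or are hotspots in the study. The members and lists were chosen with earlier results of these data known.

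Alternatives were other denominators, one count for donors that agree within 5 bp, insertions with a single donor alone, other distances, lengths and runs, and, added after the data had been seen, leaving out recurrent loci. Of 30 files 4 were not used. The software was SciPy 1.17.1, pandas 2.3.3, NumPy 2.4.6 and matplotlib 3.10.9 under Python 3.11.15.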

Additional observations from a re-analysis of the deposited data

Results flagged for a closer look

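In 4 classes the interval of the double mutant minus the sum of both single mutants, per 10000 DSB repair products, excluded 0. The difference was 9.34 for nuclear donors, −7.74 for Ty donors, −1.31 for rDNA donors and −1.64 for mitochondrial donors. The nuclear class was above the sum and the other 3 were below it, while the total, which counts insertions and not donors, differed by −0.67. This depended on the denominator. Over colonies, without the *rad27*Δ libraries at 37 °C, the total lay 6.31 above the sum (interval 3.04 to 9.79). The rDNA interval then included 0 (−1.31 to 0.46). The double mutant and each single mutant were read in different sequencing runs, and the part of the run in these differences was not tested.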

How the results depend on the processing

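Of 298 values recomputed under an alternative, 253 kept their direction and their side of the threshold or stayed within their interval. Over colonies, the ratio of the Ty frequency to *rad27*Δ was 2.54 and passed the test (3.47 with all 14 *rad27*Δ libraries), and the total minus the sum turned from −0.67 to 6.31 (7.77 with all 14). At a threshold of 50 bp the long share of nuclear insertions in the double mutant was 1.76 percentage points above *rad27*Δ and did not pass. With single *rad27*Δ runs, it was 2.04 points for the second and −9.67 points for the third. With the smaller *rtt105*Δ run alone, of 52 donors, the difference in the share near chromosome ends was 13.6 points and did not pass, and that of mitochondrial donors was 0.323 points. Without the 15 recurrent loci, the difference from *rtt105*Δ near chromosome ends was 3.17 points, and 10.1% of nuclear donors of the double mutant lay near a *rad27*Δ donor. Those loci were picked by the count of the double mutant, so both values fell by construction. The share near an *rtt105*Δ donor was 4.93% by overlap and within 100 bp, and within 5000 bp the shares were 45.1% for *rad27*Δ and 25.0% for *rtt105*Δ. In the other classes and settings, 24 comparisons no longer passed, 6 passed only under the alternative and 1 reversed its direction.

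No paired analysis was possible because the lists pool the libraries of a genotype, which also left no library to leave out in turn. The planned comparison of repeat content was not run, since no genome sequence was used here. Depth limits the small classes. A count of 0 among the repair products of the double mutant has an exact Poisson upper limit of 0.357 per 10000.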
